A study of Mus musculus with 12 samples.

Results

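The nuclear genes that encode subunits of the mitochondrial oxidative phosphorylation machinery (OXPHOS genes) were followed while a mouse B-lineage cell line was driven towards macrophages. Members were the genes of the array whose symbols follow the naming of complex I (Nduf genes), complex II (Sdha to Sdhd), complex III (Uqcr genes), complex IV (Cox4 to Cox8 genes) and complex V (Atp5 genes), each read from its brightest probe set over the 12 arrays. This gave 81 of 18193 genes, with 35 in complex I, 4 in complex II, 8 in complex III, 17 in complex IV and 17 in complex V. Testing was limited to 11696 genes, 77 of them members, that exceeded a log2 signal of 6.22 (the median of all values, called the filter level) on 2 or more arrays. Ndufb4, Cox6b2, Cox7b2 and Cox8b did not pass, with log2 signals from 4, the floor set for dim signals, to 5.63. The choice of members used gene names and no measured change, but was made with earlier results of these data known.

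The series holds 6 groups of 2 one-colour arrays hybridised with biotin-labelled total RNA. C10 cells carry C/EBPa, a transcription factor of myeloid cells, in a form that can be induced. Their groups received ethanol (vehicle), or beta estradiol over 3, 12, 24 or 48 h. HAFTL is a cell line from mouse fetal liver transformed with the Ha-ras oncogene, treated here with beta estradiol. The labels give no treatment time for vehicle C10 or HAFTL, and no label ties the 2 arrays of a group to separate cultures. The p-values therefore reflect the spread among these samples alone, and that spread may be technical.

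The respiratory chain passes electrons from NADH (complex I) and succinate (complex II) through complex III to complex IV, which reduces oxygen. Complexes I, III and IV pump protons across the inner mitochondrial membrane, and the ATP synthase, complex V, uses the return of those protons to make ATP. Most subunits are encoded in the nucleus and a few, not considered here, in mitochondrial DNA. Macrophages that respond to inflammatory signals are known to shift between glycolysis and oxidative phosphorylation.

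The promoters of 5 members whose courses are contrasted below are shown first: the c-ring genes Atp5g1, Atp5g2 and Atp5g3, which encode the same mature peptide, and Ndufa5 and Ndufa6, 2 complex I subunits that moved in opposite directions at 3 h. Each window runs from 250 bases before to 50 bases after the start of the gene, from RefSeq on GRCm38.p6. All 5 genes are on the minus strand: Atp5g1 (chr11:96075582-96075881), Atp5g2 (chr15:102670998-102671297), Atp5g3 (chr2:73911277-73911576), Ndufa5 (chr6:24527477-24527776) and Ndufa6 (chr15:82354242-82354541). Sequences are written 5′ to 3′ on the strand of the gene, and capitals mark matches to the motifs of nuclear respiratory factor 1 (NRF1) or of oestrogen-related receptors (ERR, AAGGTCA, here on the opposite strand), searched on both strands.
Atp5g1: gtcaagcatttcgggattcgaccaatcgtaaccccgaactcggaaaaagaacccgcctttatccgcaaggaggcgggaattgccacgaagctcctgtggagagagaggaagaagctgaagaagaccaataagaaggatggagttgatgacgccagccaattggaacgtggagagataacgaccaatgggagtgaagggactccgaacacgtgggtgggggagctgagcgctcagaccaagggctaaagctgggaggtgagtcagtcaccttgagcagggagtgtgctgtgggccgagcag
Atp5g2: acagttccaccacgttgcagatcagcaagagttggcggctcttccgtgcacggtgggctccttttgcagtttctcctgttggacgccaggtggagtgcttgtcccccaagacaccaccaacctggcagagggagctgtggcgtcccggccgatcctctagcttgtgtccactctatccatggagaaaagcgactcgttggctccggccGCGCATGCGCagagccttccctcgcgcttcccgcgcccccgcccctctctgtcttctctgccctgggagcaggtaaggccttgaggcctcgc
Atp5g3: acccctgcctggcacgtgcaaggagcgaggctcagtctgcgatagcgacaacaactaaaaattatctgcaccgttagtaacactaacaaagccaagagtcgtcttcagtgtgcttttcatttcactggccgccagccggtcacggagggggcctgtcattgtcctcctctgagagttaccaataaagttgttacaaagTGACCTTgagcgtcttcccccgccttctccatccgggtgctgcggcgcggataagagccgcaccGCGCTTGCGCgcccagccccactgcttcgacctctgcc
Ndufa5: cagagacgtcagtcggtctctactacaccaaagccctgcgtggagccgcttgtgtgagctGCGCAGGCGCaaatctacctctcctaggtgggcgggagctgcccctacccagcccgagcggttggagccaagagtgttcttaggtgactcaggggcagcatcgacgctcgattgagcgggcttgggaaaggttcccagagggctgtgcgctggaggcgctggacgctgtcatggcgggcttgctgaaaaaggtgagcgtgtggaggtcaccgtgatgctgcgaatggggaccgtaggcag
Ndufa6: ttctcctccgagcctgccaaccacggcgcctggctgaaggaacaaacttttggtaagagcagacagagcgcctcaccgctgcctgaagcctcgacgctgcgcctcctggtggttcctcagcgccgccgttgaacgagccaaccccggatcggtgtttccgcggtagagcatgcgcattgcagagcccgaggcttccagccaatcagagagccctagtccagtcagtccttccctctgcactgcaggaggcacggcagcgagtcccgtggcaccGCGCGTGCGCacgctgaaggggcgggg
The windows of Atp5g2, Atp5g3, Ndufa5 and Ndufa6 each held 1 NRF1 match, that of Atp5g3 also held 1 ERR match, and that of Atp5g1 held no match to any of 7 motifs searched. An NRF1 match was therefore found both in Ndufa5 and in Ndufa6. A match of letters does not show that a factor binds.

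Promoter windows were found for 66 of the 81 members. The NRF1 motif lay in 14 of them (21.2%), against 4.78% of all 27025 windows of the same length. The ETS motif CCGGAAG lay in 16 (24.2%, against 9.12%), the YY1 motif AAGATGGCG in 5 (7.58%, against 1.49%) and the ERR motif in 8 (12.1%, against 4.66%). Of motifs of factors with roles in B cells or macrophages, the E-box CAGCTG lay in 6 (9.09%, against 16.1%), the EBF motif CCCNNGGG in 8 (12.1%, against 13.4%) and the PU.1 motif GAGGAAGT in 1 (1.52%, against 3.28%). The promoters that held an NRF1 match belonged to 13 tested members, with a median log2 change of -0.38 from 24 h to 48 h, and the 49 without one had a median of -0.39.

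The median intensity per array ranged from 68.5 to 85.0 before normalisation, and the ratio of 5′ to 3′ Actb signal, a sign of RNA integrity, was 0.610 ± 0.040 (SD, n = 2) in vehicle C10 and between 0.765 and 0.825 at the 4 estradiol times. The same ratio for Gapdh was 1.194 and 1.150 in vehicle C10 and between 1.135 and 1.315 at the 4 estradiol times. Whether either ratio has a part in the member changes was not tested. The labels were checked against cell type markers: all 8 pre-B markers found fell at every estradiol time, and 7 of 8 macrophage markers were higher at 24 h and at 48 h than in vehicle C10. Unless stated otherwise, a change is the difference of mean log2 signals ± its standard error from limma, with 2 arrays per group and p-values adjusted over all 11696 genes (Benjamini-Hochberg), and a gene rose or fell where the adjusted p was below 0.05.

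The OXPHOS genes moved upwards more often than downwards at 3 h and fell together between 24 h and 48 h. At 3 h, 26 of 77 members rose and 12 fell against vehicle C10, with 20.9% of all genes tested higher and 27.3% lower. From 24 h to 48 h, 54 of 77 members fell (70.1%, against 17.9% of all genes) and Cox7c alone rose (9.47% of all genes rose). The median member changed by 0.18 at 3 h and by -0.39 from 24 h to 48 h, and the median of all genes by -0.06 and -0.07. In this bulk RNA, fewer cells of a kind and less RNA per cell cannot be told apart.

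Against vehicle C10, 23 members rose and 11 fell at 12 h (22.3% and 28.7% of all genes), and 23 rose and 16 fell at 24 h (24.2% and 33.3%). At 48 h, 3 members rose and 41 fell (24.2% and 38.2%), with a median change of -0.27 against -0.19 for all genes. The difference of -0.09 between these medians changed with the settings: it was 0.05 without quantile normalisation or with median centring of the arrays, 0.03 with scaling to the spiked-in controls, -0.14 with a floor of 64 and -0.23 with no filter on dim genes. Scaling to those controls also turned the members' own 48 h median to 0.44, while it moved the median of all genes to 0.41. The distance between members and all genes from 24 h to 48 h was -0.32, and -0.34 under each of these 3 scalings.

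The number of calls depended more on the scaling than this distance did. From 24 h to 48 h, 55 members fell without quantile normalisation and 54 with median centring, but 1 with spike-in scaling, where the 48 h arrays had mean log2 spike-in signals of 8.18 and 7.14. At 3 h, 35 members rose and 7 fell without quantile normalisation, 42 and 4 with median centring, and 13 and 1 with spike-in scaling. At 12 h these pairs were 32 and 8, 32 and 6, and 16 and 1, and at 24 h 36 and 10, 32 and 10, and 3 and 1. At 48 h they were 7 and 34, 5 and 34, and 2 and 1.

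Over the 5 C10 conditions, 70 of 77 members varied by limma's moderated F test (90.9%, against 76% of all genes), the exceptions being Ndufa2, Ndufa4l2, Ndufs3, Uqcrh, Cox4i2, Cox8c and Atp5md. Of all 6 group means, that at 48 h was the lowest for 53 of 77 members and the highest for 0. The 3 h mean was the highest for 27, that at 24 h for 15, HAFTL for 14, 12 h for 13 and vehicle C10 for 8.

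**Figure D1:**
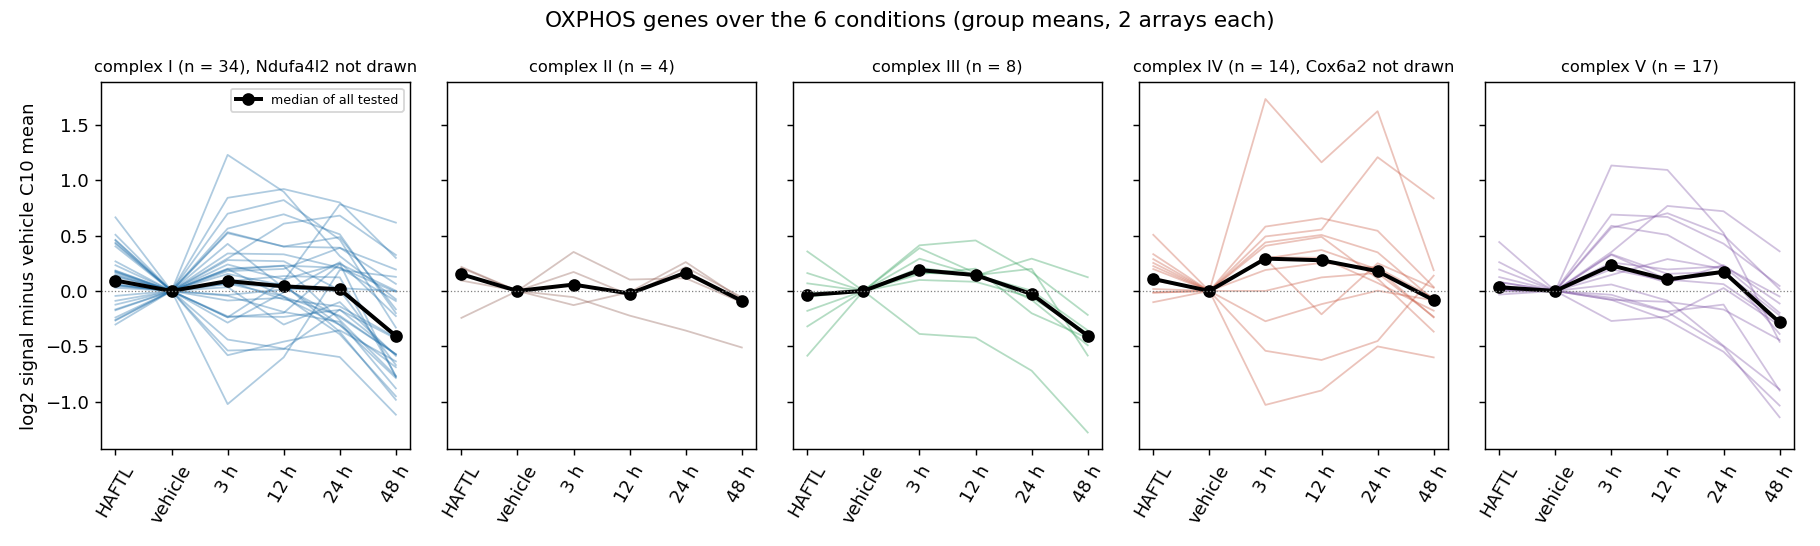
Mean log2 signal of each tested member minus its mean in vehicle C10 (thin lines), by complex, over the 6 groups of 2 arrays, with the median of all tested members of the complex in black and the lines of Ndufa4l2 and Cox6a2 not drawn. As drawn, complexes III, IV and V have their highest median at 3 h and all 5 their lowest at 48 h, but without quantile normalisation complex IV is highest at 12 h (0.34) and complex V at 24 h (0.41), the complex IV median at 48 h is 0.019, with median centring complexes IV and V are lowest in HAFTL, and with spike-in scaling complex IV is highest at 12 h (1.08) and all 5 medians at 48 h are above vehicle.

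**Figure D2:**
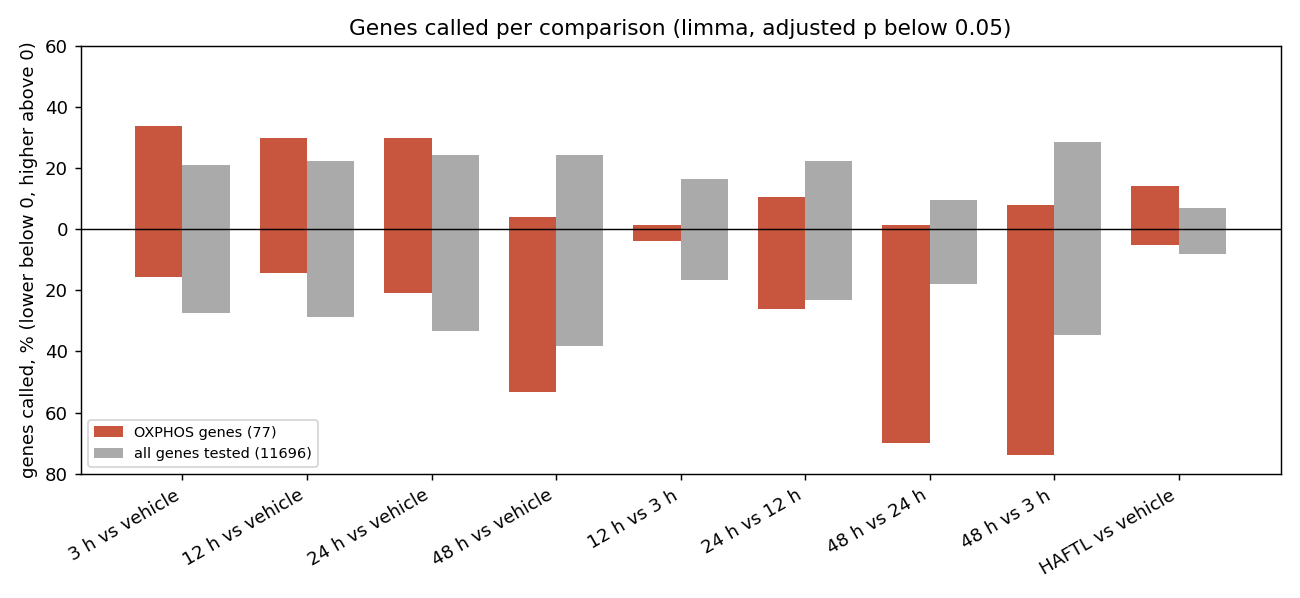
Percent of the 77 OXPHOS genes (red) and of all 11696 genes tested (grey) called higher (above 0) or lower (below 0) by limma in each of 9 comparisons. The red bar below 0 is longest, at 74% and 70.1%, in the comparisons of 48 h with 3 h and with 24 h.

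The steps between times differed in number of calls. From 3 h to 12 h, 1 member rose (Ndufa6) and 3 fell (Sdhb, Sdhd and Atp5c1), against 16.6% of all genes in each direction. From 12 h to 24 h, 8 rose and 20 fell (22.3% and 23.1% of all genes), and the 20 included all 3 c-ring genes, while without quantile normalisation 10 rose and 13 fell. From 3 h to 48 h, 57 fell and 6 rose (34.6% and 28.7% of all genes), the 6 being Ndufa13, Ndufa3, Ndufa6, Cox4i1, Cox7a2l and Cox7c.

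These counts moved where an array was left out. Without the first 24 h array, 31 members fell from 24 h to 48 h, and 11 rose at 24 h against vehicle C10. The count of members higher at 24 h was 15 without the second 24 h array and 15 without the first vehicle array. At 3 h, 17 rose without the second 3 h array and 7 fell without the first, and at 12 h, 7 fell without the second 12 h array. From 12 h to 24 h, 4 rose without either 12 h array or without the first 24 h array, and 9 to 13 fell without any one of those 4 arrays.

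The comparisons of 3 h with vehicle C10 and of 48 h with 24 h share no array, and can be set side by side. Their calls are not independent, since the standard error of a gene comes from all 12 arrays and serves both. A gene with a small spread is more readily called in both. Of the 26 members that rose at 3 h, 23 fell from 24 h to 48 h. Of the 12 that fell at 3 h, 8 fell again and 1 (Cox7c) rose. Of the 39 not called at 3 h, 23 fell. The median late changes of these 3 sets were -0.43, -0.27 and -0.36. Of all genes tested, 17.9% fell and 9.47% rose from 24 h to 48 h. How often other genes that rose at 3 h fell in that interval was not counted, so the split cannot be called particular to the members. Across the 77 genes, which are not independent replicates, Pearson's r was 0.05 and Spearman's rho -0.28.

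**Figure D3:**
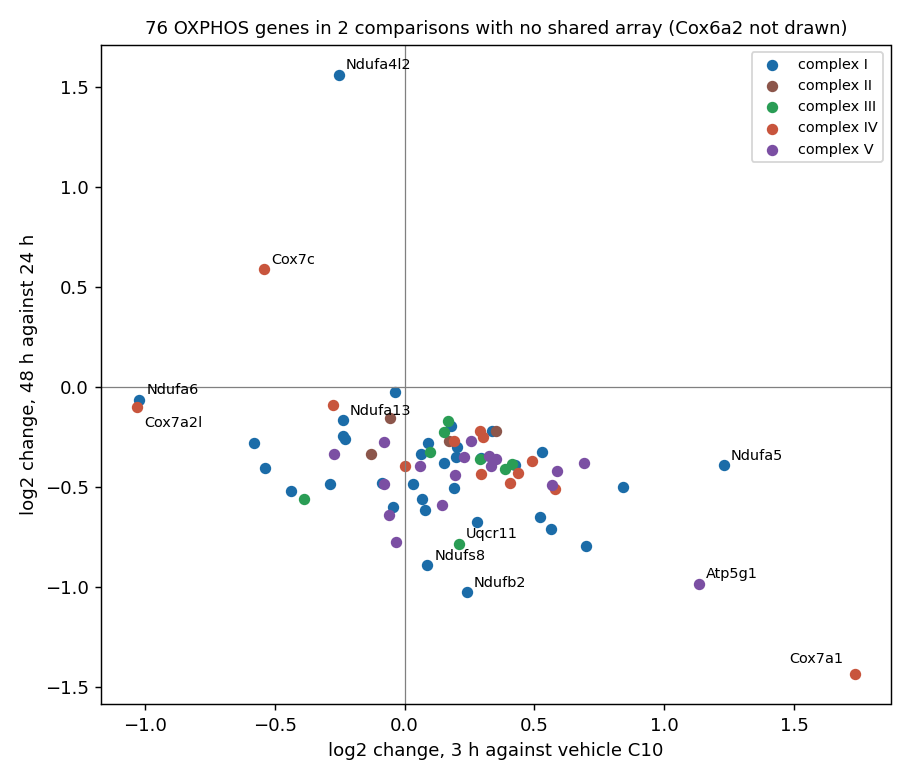
Log2 change at 3 h against vehicle C10 (horizontal) and from 24 h to 48 h (vertical) for 76 members, coloured by complex, with Cox6a2 (-2.90 and -2.37) not drawn. Nearly all points lie below 0 on the vertical axis on both sides of 0 on the horizontal axis.

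Most members are bright on this array, so they were also read against bright genes alone, at a level set after the values were seen. Among 2213 genes with a mean log2 signal above 11, 31.5% fell from 24 h to 48 h, and 52 of the 69 members among them did. At 48 h against vehicle C10 47.2% of those genes fell, and 39 of 69 members. At 3 h 29.3% of the bright genes rose, and 25 of 69 members, at 12 h 34.3% and 22 of 69, and at 24 h 34.1% and 21 of 69. Read against bright genes, the counts of members that rose at 12 h and 24 h were thus near the background. Falls were rarer among members than among bright genes. For 3 h the calls were 10 of 69 members against 34.7% of bright genes. For 12 h they were 9 of 69 against 34.1%, with 14 of 69 against 40.5% for 24 h. Median changes of members for 3, 12 and 24 h were 0.18, 0.10 and 0.16. Those of bright genes were -0.03, 0.0035 and -0.06.

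In complex I, the NADH dehydrogenase, 22 of 34 tested subunits fell from 24 h to 48 h (64.7%, against 17.9% of all genes). At 48 h against vehicle C10, 18 fell (52.9%) and 3 rose (8.82%), with 38.2% of all genes lower and 24.2% higher. The 48 h median of -0.41 became 0.21 with spike-in scaling. The core subunits, which carry the cofactors and catalyse the reaction, and the supernumerary subunits around them are listed apart. By name, Ndufa4 and Ndufa4l2 are counted here among the supernumerary subunits, although Ndufa4 has since been assigned to complex IV. Of 6 core subunits tested, 5 were lower at 48 h than in vehicle C10, with a median change of -0.86. Of 28 supernumerary subunits 13 were lower (46.4%) and 3 higher (10.7%), with a median of -0.28. That lower share is near the one of bright genes, of which 47.2% fell and 31.5% rose. The difference between these sets was not tested.

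Ndufv2, an iron-sulphur subunit of the NADH-oxidising module, had log2 signals of 13.29 and 13.36 in vehicle C10, 12.86 and 12.91 at 3 h, 12.78 and 12.82 at 12 h, then 12.77 and 12.69 at 24 h and 12.19 and 12.22 at 48 h. Its 48 h arrays lay below all others, and it fell by 1.12 ± 0.07 at 48 h (adjusted p = 3.1e-06) after a fall of 0.44 ± 0.07 at 3 h. The flavin-binding subunit Ndufv1 read 11.82 and 11.90 in vehicle C10, 11.93 and 11.94 at 3 h, 11.92 and 11.91 at 12 h, then 11.50 and 11.48 at 24 h and 10.81 and 10.94 at 48 h. It was level through 12 h within its error and fell by 0.98 ± 0.07 at 48 h (adjusted p = 8.5e-06).

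Ndufs1, the largest iron-sulphur subunit, followed a like course, with 11.35 and 11.45 in vehicle C10, 11.49 and 11.44 at 3 h, 11.34 and 11.36 at 12 h, then 11 and 11.02 at 24 h and 10.51 and 10.39 at 48 h. The change at 48 h was -0.95 ± 0.08 (adjusted p = 2.1e-05). Among supernumerary subunits, Ndufb2 kept between 11.19 and 11.55 on all arrays up to 24 h and dropped to 10.56 and 10.43 at 48 h. Its fall of 1.03 ± 0.08 came within the last interval (adjusted p = 0.00021).

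Ndufa5 and Ndufa6, both supernumerary subunits of the arm that faces the matrix, took opposite courses in the first hours. Ndufa5 read 10.93 and 10.96 in vehicle C10, 12.03 and 12.32 at 3 h, 11.94 and 11.75 at 12 h, then 11.22 and 11.31 at 24 h and 10.92 and 10.83 at 48 h. Its arrays at 3 h and 12 h lay above those of all other groups, including HAFTL at 11.52 and 11.39, and the rise at 3 h was 1.23 ± 0.12 (adjusted p = 0.0001). The other probe set of Ndufa5 rose by 1.39 at 3 h.

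Ndufa6 read 12.73 and 12.85 in vehicle C10, 11.80 and 11.73 at 3 h, 12.25 and 12.13 at 12 h, then 12.95 and 13.02 at 24 h and 12.90 and 12.93 at 48 h. It fell by 1.02 ± 0.08 at 3 h (adjusted p = 3.4e-05) and at 48 h differed from vehicle C10 by 0.13 ± 0.08 (adjusted p = 0.20). The 3 h arrays were its lowest, the 12 h arrays the next, and those of the other groups did not overlap them.

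The 3 members that were higher at 48 h than in vehicle C10 were all supernumerary subunits of complex I. Ndufa13, also known as a cell death regulator, read 12.73 and 12.62 in vehicle C10, 12.44 and 12.45 at 3 h, 12.86 and 12.68 at 12 h, then 13.42 and 13.50 at 24 h and 13.39 and 13.20 at 48 h. It was 0.62 ± 0.12 higher at 48 h (adjusted p = 0.0021), with the rise between 12 h and 24 h. Ndufa1 was 0.32 ± 0.12 higher (adjusted p = 0.039), from 13.35 and 13.37 to 13.77 and 13.60.

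Ndufb8 read 12.11 and 12.00 in vehicle C10, between 12.81 and 12.99 on the 6 arrays from 3 h to 24 h, and 12.37 and 12.33 at 48 h. Its change of 0.84 ± 0.07 at 3 h had shrunk to 0.30 ± 0.07 at 48 h (adjusted p = 0.0059). Ndufa4, named as a complex I subunit but since assigned to complex IV, read 12.26 and 12.33 in vehicle C10, 12.96 and 13.02 at 3 h, 13.11 and 13.12 at 12 h, then 12.76 and 12.75 at 24 h and 11.92 and 12.01 at 48 h. It rose by 0.70 ± 0.07 at 3 h and changed by -0.33 ± 0.07 at 48 h (adjusted p = 0.0039), its 48 h arrays being the lowest of all. Its paralogue Ndufa4l2, known as a hypoxia-induced gene, was dim (4 to 6.63) and its duplicates differed by up to 1.98 log2, and no change of it passed the test.

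In complex II, which also serves the tricarboxylic acid cycle, 1 of 4 members fell at 48 h against vehicle C10 (38.2% of all genes). This was Sdha, the flavoprotein subunit. Sdha read 11.82 and 11.78 in vehicle C10, 11.82 and 11.67 at 3 h, 11.58 and 11.57 at 12 h, then 11.46 and 11.42 at 24 h and 11.21 and 11.36 at 48 h. Its change at 48 h was -0.51 ± 0.08 (adjusted p = 0.00091), and its arrays at 48 h lay below those of every other group. Sdhb and Sdhc fell from 24 h to 48 h, when 17.9% of all genes fell. The median of the 4 genes at 48 h was -0.09 against vehicle C10, and that of all genes -0.19.

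In complex III, 6 of 8 members fell from 24 h to 48 h, against 17.9% of all genes. At 48 h 7 were lower than in vehicle C10, against 38.2% of all genes. Their 48 h median of -0.40 became 0.20 with spike-in scaling. Uqcrc2, a core subunit, read 12.78 and 12.83 in vehicle C10, 12.35 and 12.48 at 3 h, 12.41 and 12.36 at 12 h, then 12.06 and 12.11 at 24 h and 11.65 and 11.40 at 48 h. Its change of -1.28 ± 0.10 at 48 h (adjusted p = 1.5e-05) followed one of -0.39 ± 0.10 at 3 h, and vehicle C10 lay above every other group. The small subunit Uqcr11 stayed between 11.97 and 12.36 on all 10 other arrays and read 11.44 and 11.51 at 48 h, a fall of 0.78 ± 0.08 after 24 h (adjusted p = 0.00067).

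Complex IV, cytochrome c oxidase, has subunits with alternative isoforms whose use differs between tissues, and 1 of them, Cox6a2, had the largest change of any member. From 24 h to 48 h 8 of 14 tested members of the complex fell (57.1%, against 17.9% of all genes) and 1 rose. At 48 h 5 of 14 were lower than in vehicle C10 (35.7%), near the 38.2% of all genes, and 0 were higher (24.2% of all genes). Their 48 h median was -0.08, against -0.19 for all genes, and lay above vehicle C10 with spike-in scaling. Cox6a2, the heart and skeletal muscle isoform of subunit VIa, read 11.71 and 11.62 in HAFTL, 12.44 and 12.40 in vehicle C10, 9.59 and 9.46 at 3 h, 8.25 and 8.23 at 12 h, then 8.25 and 7.95 at 24 h and 6.65 and 4.82 at 48 h. All estradiol arrays of C10 lay below all arrays of vehicle C10 and HAFTL. The change was -2.90 ± 0.48 at 3 h (adjusted p = 0.0017), -4.32 ± 0.48 at 24 h (adjusted p = 0.00014) and -6.69 ± 0.48 at 48 h (adjusted p = 9.4e-06). At 48 h 1 of 2 arrays was under the filter level of 6.22, and leaving out either 48 h array gave changes between -7.60 and -5.77. Its other probe set fell by 2.67 ± 0.29 at 3 h and changed by -6.13 at 48 h, with a change of -0.33 ± 0.29 from 24 h to 48 h (adjusted p = 0.48).

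Muscle marker genes were read beside Cox6a2, since that isoform belongs to striated muscle. Of 10 markers, 5 were under the filter level on all arrays, and Mb (myoglobin) was at the floor of 4 on all 12. Of the 5 tested, 1 was lower at 48 h, Tnnt2 (cardiac troponin T), which changed by -3.78 ± 0.21 (adjusted p = 2.4e-06) but by 0.03 ± 0.21 at 3 h, when Cox6a2 had fallen. At 48 h Ckm changed by -0.13, Myh7 by 0.19, Tnnt3 by 0.26 and Acta1 by -1.08, none past the test. For Ckm all arrays of both groups were under the filter level. Myh7 was under that level on both arrays in vehicle C10 and at 3 h, so no difference between these groups can be given. At 24 h Myh7 was at least 2.81-fold higher than in vehicle C10 (adjusted p = 0.010). The log2 of the summed signal of the 10 markers was 10.42 and 10.69 in vehicle C10, 10.46 and 10.62 at 3 h, and 8.68 and 8.69 at 48 h, a sum carried in vehicle C10 by Tnnt2, at 10.05 and 10.31 there. Its part in the change of Cox6a2 was not tested.

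In RefSeq gene order Cox6a2 lies beside the integrin genes Itgad, Itgax and Itgam, of which Itgax and Itgam, encoding the CD11c and CD11b chains of myeloid cells, were measured. Itgam was below the filter level in vehicle C10 and read 8.03 and 7.36 at 24 h and 9.33 and 9.40 at 48 h, at least 8.84-fold higher than vehicle at 48 h (adjusted p = 3.9e-06). Itgax was also below that level in vehicle C10 and read 8.31 and 8.57 at 48 h, at least 4.65-fold higher (adjusted p = 0.0020). At 3 h both Itgam and Itgax were under the filter level on both arrays, as in vehicle C10, so no difference between these groups can be given. On the other side of Cox6a2, Armc5 rose by 0.86 ± 0.22 at 3 h (adjusted p = 0.012), and at 48 h it changed by 0.41 ± 0.22 and 9130023H24Rik by 0.30 ± 0.18, neither past the test. These neighbours were looked up after the values of Cox6a2 were seen.

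Cox6a1, the widely expressed partner isoform, kept between 14.17 and 14.59 on all 12 arrays and changed by -0.06 ± 0.09 at 48 h (adjusted p = 0.58). Cox7a1, the heart and muscle isoform of subunit VIIa, took a course of its own, with 6.27 and 6.75 in vehicle C10, 8.22 and 8.27 at 3 h, 7.88 and 7.47 at 12 h, then 8.08 and 8.19 at 24 h and 6.74 and 6.65 at 48 h. The 6 arrays from 3 h to 24 h lay above those of the other groups, with a rise of 1.73 ± 0.22 at 3 h (adjusted p = 0.00042) and a fall of 1.44 ± 0.22 after 24 h (adjusted p = 0.0028). The gene is dim in vehicle C10, near the filter level.

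Cox7a2, the widely expressed isoform, read 14.36 and 14.40 in vehicle C10, 14.77 and 14.80 at 3 h, 14.90 and 14.83 at 12 h, then 14.49 and 14.49 at 24 h and 14 and 14.03 at 48 h. It rose by 0.41 ± 0.06 at 3 h, and its 48 h arrays were the lowest, with a change of -0.37 ± 0.06 (adjusted p = 0.0012). Cox7a2l, a related protein that joins complexes III and IV in supercomplexes, went the other way at first, with 13.94 and 13.91 in vehicle C10, 12.85 and 12.95 at 3 h, 13.09 and 12.97 at 12 h, then 13.37 and 13.48 at 24 h and 13.41 and 13.24 at 48 h. It fell by 1.03 ± 0.09 at 3 h (adjusted p = 5.9e-05), and both of its other probe sets fell as well, by 1.22 and 1.09.

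Of the remaining alternative isoforms, Cox4i2 was dim, at 5.38 and 6.61 in vehicle C10 and 7.38 and 7.03 at 24 h, and was 1.21 ± 0.41 higher at 24 h (adjusted p = 0.038). This change was 0.59 without the first vehicle array (adjusted p = 0.21) and 1.82 without the second, and the vehicle arrays themselves differed by as much. It also did not pass without either 24 h array (adjusted p = 0.15 and 0.070), without any 1 HAFTL, 3 h or 12 h array (adjusted p from 0.050 to 0.055) or with no filter (adjusted p = 0.068). Cox8c, the testis isoform, read between 7.77 and 8.48 on all arrays with no change past the test. Their partners Cox4i1 and Cox8a changed by -0.09 ± 0.06 and -0.23 ± 0.07 at 48 h, of which the second passed (adjusted p = 0.016). Cox6b1 rose by 0.58 ± 0.07 at 3 h and at 48 h differed from vehicle C10 by 0.04 ± 0.07.

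Cox7c was the 1 member that rose from 24 h to 48 h. It read 8.75 and 8.84 in vehicle C10, 8.22 and 8.29 at 3 h, 8.22 and 8.12 at 12 h, then 8.45 and 8.24 at 24 h and 9.09 and 8.78 at 48 h. The late rise was 0.59 ± 0.15 (adjusted p = 0.025) after a fall of 0.54 ± 0.15 at 3 h, and its vehicle and 48 h arrays overlapped. Leaving out 1 array at a time gave late changes from 0.43 to 0.75. With spike-in scaling 0 members were called higher in that interval, so the rise of Cox7c did not pass there.

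**Figure D4:**
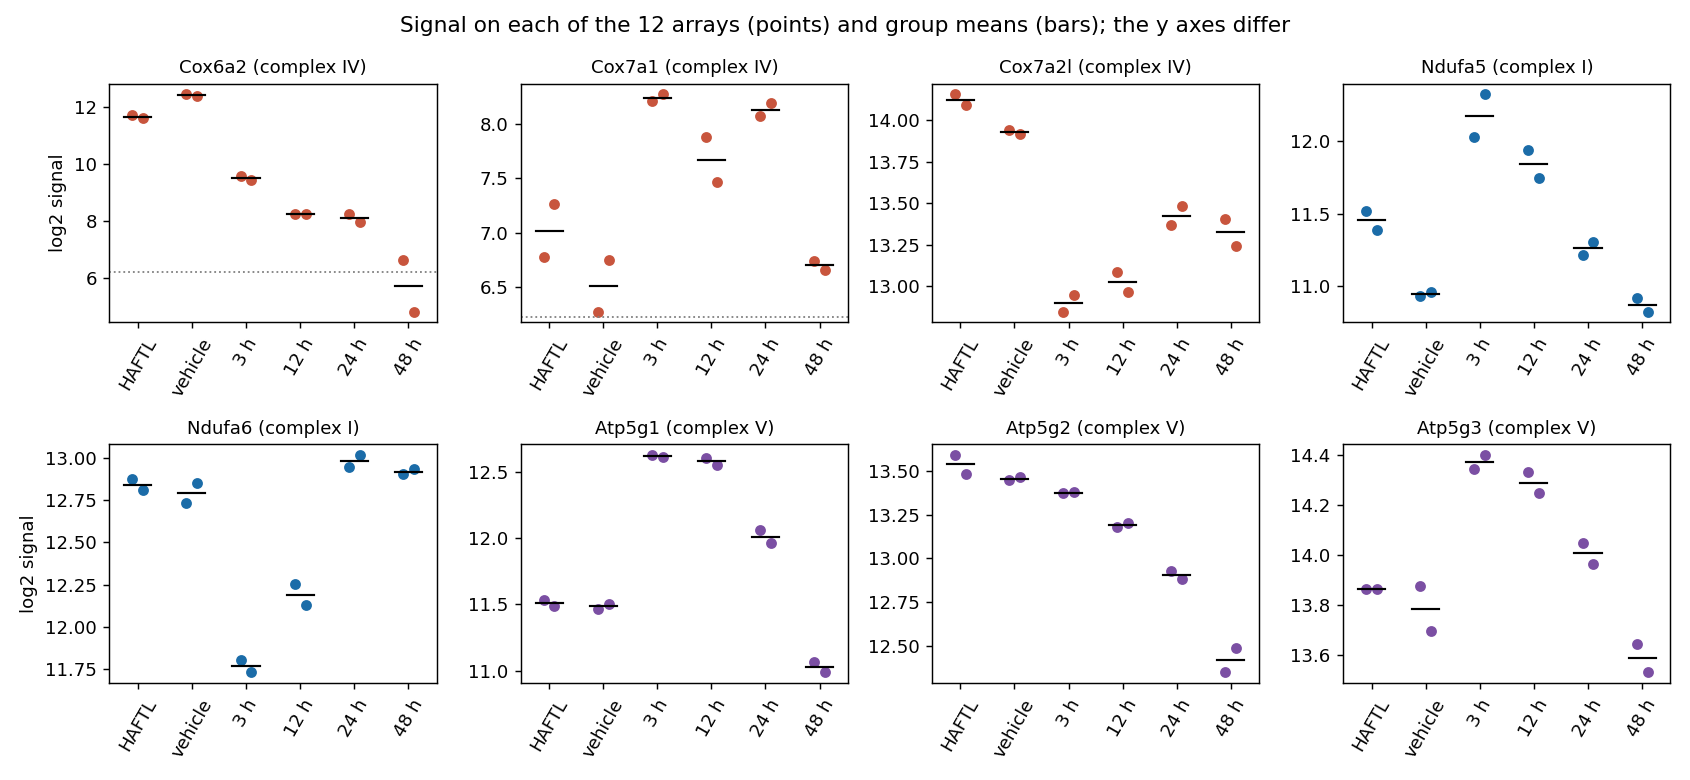
Log2 signal on each of the 12 arrays (points) and group means (bars) of 8 members, each on its own axis. The dotted line, drawn for Cox6a2 and Cox7a1, is the filter level of 6.22. Cox6a2 falls from 12.44 and 12.40 in vehicle C10 to 6.65 and 4.82 at 48 h, Ndufa5 and Ndufa6 part at 3 h, and of the c-ring genes Atp5g1 and Atp5g3 are higher at 3 h than in vehicle C10 and Atp5g2 is not.

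In complex V, 16 of 17 members fell from 24 h to 48 h, among them all 5 members of the catalytic F1 head, all 3 of the c ring and all 4 of the peripheral stalk. Of all genes, 17.9% fell in that interval. Against vehicle C10, 10 of 17 were lower at 48 h (58.8%, against 38.2% of all genes). Their 48 h median of -0.28 became 0.51 with spike-in scaling. Atp5a1, the alpha subunit of the head, read 13.79 and 13.80 in vehicle C10, 13.78 and 13.70 at 3 h, 13.57 and 13.65 at 12 h, then 13.32 and 13.27 at 24 h and 12.62 and 12.70 at 48 h. It fell by 1.14 ± 0.07 at 48 h (adjusted p = 4e-06), without a rise at 3 h. Of its other probe sets, 1 changed by -1.01 ± 0.08 at 48 h (adjusted p = 1.6e-05) and 1 by 0.11 ± 0.12 (adjusted p = 0.46). Atp5b, the beta subunit with the catalytic sites, read 14.20 and 14.23 in vehicle C10 and 13.31 and 13.35 at 48 h, a change of -0.89 ± 0.08 (adjusted p = 2.9e-05).

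The c ring, the rotor through which protons pass, is built from copies of 1 peptide that 3 genes encode with different import sequences. Atp5g1 read 11.47 and 11.50 in vehicle C10, 12.62 and 12.61 at 3 h, 12.60 and 12.55 at 12 h, then 12.06 and 11.96 at 24 h and 11.06 and 10.99 at 48 h. It rose by 1.13 ± 0.07 at 3 h (adjusted p = 1.1e-05) and was lower than in vehicle C10 at 48 h by -0.46 ± 0.07 (adjusted p = 0.00057). Its other probe set changed by -1.74 ± 0.55 at 3 h (adjusted p = 0.034), so the direction at 3 h depends on the probe set.

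Atp5g3 read 13.87 and 13.69 in vehicle C10, 14.34 and 14.40 at 3 h, 14.33 and 14.25 at 12 h, then 14.05 and 13.96 at 24 h and 13.64 and 13.53 at 48 h, with a rise of 0.59 ± 0.09 at 3 h (adjusted p = 0.0009). Atp5g2 read 13.45 and 13.46 in vehicle C10, 13.37 and 13.38 at 3 h, 13.18 and 13.20 at 12 h, then 12.93 and 12.88 at 24 h and 12.35 and 12.49 at 48 h. Each time group of Atp5g2 lay below the one before without overlap, and it was lower at 48 h by -1.04 ± 0.07 (adjusted p = 8.6e-06). In HAFTL the 3 genes differed from vehicle C10 by 0.03, 0.08 and 0.08, none past the test.

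Against vehicle C10, HAFTL had 11 members higher and 4 lower (7.11% and 8.12% of all genes), none by more than 0.66. HAFTL received beta estradiol and vehicle C10 ethanol, so cell line and treatment cannot be told apart here. The highest was Ndufc1, at 12.88 and 13.10 in HAFTL and 12.34 and 12.32 in vehicle C10 (0.66 ± 0.12, adjusted p = 0.012), and the lowest Uqcrq, at 11.77 and 11.72 against 12.27 and 12.38 (-0.59 ± 0.08, adjusted p = 0.0033). These counts were 6 and 4 without quantile normalisation and 0 and 7 with median centring. They fell to 1 to 3 higher and 1 lower when any 1 of the 4 arrays was left out, and to 2 lower without either 12 h array.

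The probe sets of a gene did not always move together. Besides the 77 tested, 75 other probe sets of 47 members were tested, of which 40 fell and 1 rose from 24 h to 48 h. Calls in opposite directions were found for Atp5g1 and Ndufa7 at 3 h, Ndufa7 and Ndufs4 at 12 h, Atp5g1 at 24 h, and Ndufa12 and Ndufa7 at 48 h. They were also found for Ndufa12 from 24 h to 48 h, and for Ndufa12 and the core subunit Ndufs8 from 3 h to 48 h. In addition, 15 members are read from probe sets whose names mark possible matches to related sequences.

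Other mitochondrial gene lists were read for context, by their counts and medians and with no set test. At 48 h against vehicle C10, when 38.2% of all genes were lower and 24.2% higher with a median of -0.19, 65 of 76 mitochondrial ribosomal protein genes fell (median -0.75), 18 of 20 genes of mitochondrial DNA expression (-1.16), 14 of 17 of electron carriers and coenzyme Q synthesis (-0.96), 13 of 16 of the tricarboxylic acid cycle and pyruvate dehydrogenase (-0.78), 16 of 18 of protein import (-0.75) and 12 of 16 complex I assembly factors (-0.93). With spike-in scaling the medians of these 6 lists were still below 0, between -0.62 and -0.16. The OXPHOS median at 48 h was -0.27. The electron carrier list holds Cyc1, a complex III subunit, and the complex I assembly list holds Ndufab1, a complex I subunit. Both fall outside the name pattern that set the members.

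At 48 h, with the same shares of all genes beside them, 9 of 21 complex IV assembly factors fell and 5 rose (median -0.14), which is near those shares. Both directions were also called among 15 fatty acid oxidation genes (8 fell and 1 rose, -0.31), 12 assembly factors of complexes II, III and V (7 and 2, -0.52), 10 fission and fusion genes (6 and 2, -0.48) and 9 biogenesis regulators (5 and 2, -0.51). Of 7 genes of ATP and ADP transport and control 6 fell (-0.39). With spike-in scaling the medians of these 6 lists were above 0.

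Among complex I assembly genes, Ndufaf6 changed by -1.92 ± 0.10 at 48 h. Bcs1l, the chaperone that inserts the Rieske protein into complex III, changed by -2.72 ± 0.18, and Sco2, a copper chaperone of complex IV, by -1.54 ± 0.17. Suclg2 and Pdha1, of the tricarboxylic acid cycle and of pyruvate dehydrogenase, changed by -2.11 ± 0.08 and -1.94 ± 0.09. Timm8a1 and the chaperones Hspa9 and Hspd1 of mitochondrial import changed by -3.45 ± 0.08, -2.63 ± 0.08 and -2.56 ± 0.11. Genes chosen by the same rule also rose at 48 h. Leaving out 1 array at a time, Cox20 of the complex IV assembly list changed by 0.99 to 1.13. Oma1 of the fission and fusion list changed by 0.58 to 0.70.

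Of regulators of mitochondrial biogenesis, Gabpb1, a subunit of the ETS factor NRF2, changed by -1.54 ± 0.08 and Pprc1, a coactivator, by -1.15 ± 0.09. Hif1a, the hypoxia-inducible factor, was 1.12 ± 0.09 higher at 48 h (adjusted p = 1.6e-05). Cpt1a, which admits fatty acids to the mitochondrion, was 0.98 ± 0.13 higher (adjusted p = 0.00031) and Hadh, of beta oxidation, changed by -2.33 ± 0.08 (adjusted p = 1.9e-07).

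**Figure D5:**
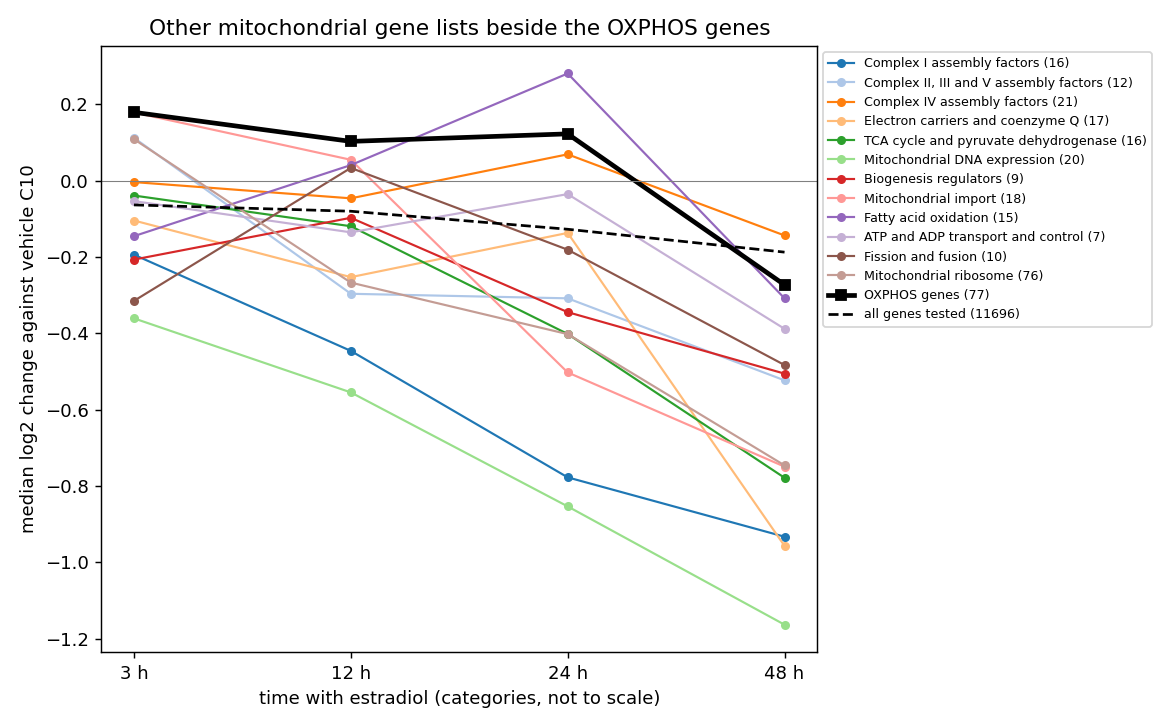
Median log2 change against vehicle C10 at 3, 12, 24 and 48 h (evenly spaced categories) of the OXPHOS genes (thick black), of 12 other mitochondrial lists (colours, genes tested in brackets) and of all genes tested (dashed). The OXPHOS median stays above 0 through 24 h and is -0.27 at 48 h, or 0.44 with spike-in scaling, and mitochondrial DNA expression has the lowest median at each time.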

How the data were processed

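RNA of 12 samples in 6 groups of 2 was measured on one-colour arrays, after Trizol extraction and biotin labelling, per the labels. The deposited table gives 1 linear intensity per probe set and array, which the authors had scaled, since the mean after trimming 2% at each end was 500.0 on every array. The scaling method is not given in the sources used here. Intensities were taken to log2 and quantile normalised over 45101 probe sets, 64 control probe sets were left out, and values under 16 were set to 16. Genes were named from the platform annotation where a probe set had 1 symbol, and the brightest probe set stood for each of 18193 genes. Of these, 11696 passed log2 6.22 (signal 74.65) in 2 arrays. Models had a mean for each group and all 12 arrays and were fitted with limma (3.58.1, R 4.3.3), empirical Bayes moderation, two-sided tests and Benjamini-Hochberg adjustment over all genes at 0.05. Residual degrees of freedom were 6, with a prior of 1.53. The script was tested on simulated data. Where both arrays of a group were under log2 6.22, folds are bounds.

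The members and lists were chosen with earlier results of these data known. Members described array by array were, per complex, the 2 with the largest called rises and falls at 48 h, those with a called change of at least 1 log2 in any comparison, and the isoform pairs, with up to 3 genes of each other list by the size of a called change at 48 h. Ndufb8, Cox7c, Atp5b, Ndufc1, Uqcrq, Armc5 and the other neighbours of Cox6a2 lie outside that rule and were chosen after their values were seen. Same-numbered samples did not deviate together: over 15 pairs of groups the correlations of their deviations ran from -0.03 to 0.04. Duplicates correlated at 0.976 to 0.980 over all genes. The number of arrays limits the precision. Alternatives were no quantile normalisation, median centring, spike-in scaling, no filter, a stricter filter (70th percentile), probe sets averaged per gene, a floor of 64, a replicate block, and leaving out each array. RefSeq GRCm38.p6 promoters matched 66 of 81 members. Cox7b was not analysed here.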

Additional observations from a re-analysis of the deposited data

How the results depend on the processing

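The results were recomputed under other scalings, filters and floors, probe set means, a replicate block and leaving out each array. Of 2858 values of named genes under them, 2698 kept their direction and side of the threshold, 122 were no longer past it, 23 were newly past it and 15 changed sign. The causes were not tested. This tally is no measure of robustness. Besides 8 processing settings it covers leaving out each of 12 arrays. Most arrays belong to neither group of a comparison, and leaving them out hardly moves its change by design. The tally also holds genes of other lists that were named for large called changes. With spike-in scaling, the counts of members higher and lower were 13 and 1 at 3 h, 16 and 1 at 12 h, at 24 h 3 and 1, at 48 h 2 and 1, 0 and 0 from 3 h to 12 h and from 12 h to 24 h, 0 and 1 from 24 h to 48 h, 0 and 9 from 3 h to 48 h, and 0 and 0 for HAFTL, and the F test called 11. At an unadjusted p below 0.05 limma then gave 0 and 1 from 3 h to 12 h, 0 and 2 from 12 h to 24 h and from 24 h to 48 h, 1 and 22 from 3 h to 48 h, and 0 and 0 for HAFTL. With median centring, 42 rose and 4 fell at 3 h, 6 fell at 12 h, 10 fell at 24 h, 5 rose at 48 h, 12 fell from 12 h to 24 h, and 0 rose and 7 fell in HAFTL (3 and 14 at an unadjusted p below 0.05), with a HAFTL median of -0.084. Without quantile normalisation, 7 fell at 3 h, 36 rose and 10 fell at 24 h, 7 rose at 48 h, 13 fell from 12 h to 24 h, and 6 rose in HAFTL. The 70th percentile filter gave 3 higher and 8 lower from 3 h to 12 h. With probe sets averaged per gene, 13 fell from 12 h to 24 h and 2 in HAFTL, Atp5g1 changed by -0.30 at 3 h and Cox8a by 0.11 at 48 h. Replicate numbers only share a number here: with the replicate block, 2 rose from 3 h to 12 h, 2 fell in HAFTL and 48 fell from 24 h to 48 h.

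With spike-in scaling, the OXPHOS median at 48 h was 0.44, and signs also turned for Atp5g1 (0.12), Cox7a2 (0.40), Cox7a2l (0.19), Cox8a (0.50), Ndufa4 (0.32), Sdha (0.088), Uqcr11 (0.036), Slc25a3 (0.27) and Vdac2 (0.022) at 48 h and for Cox4i1 (0.53), Cox7c (0.033), Ndufv2 (0.44) and Uqcrc2 (0.46) at 3 h.

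Leaving out 1 array at a time gave 17 to 27 members higher and 7 to 12 lower at 3 h, 16 to 23 and 7 to 12 at 12 h, 11 to 22 and 12 to 17 at 24 h, and 2 to 3 and 36 to 43 at 48 h. From 3 h to 12 h it gave 1 to 2 higher and 0 to 3 lower, from 12 h to 24 h 4 to 8 and 9 to 20, from 24 h to 48 h 0 to 1 and 31 to 53, and from 3 h to 48 h 4 to 6 and 52 to 57. For HAFTL it gave 1 to 10 higher and 1 to 5 lower, and the F test called 64 to 69. Signal over background limits Ndufa4l2, Cox4i2 and the last step of Cox6a2.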
